A study of Homo sapiens with 12 samples.

Results

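Messenger RNA levels were measured in CCRF-CEM, an established human leukaemia line of T-lymphoblastic origin. The comparison set 3 cultures treated with tubercidin directly against 3 cultures treated with actinomycin D. These are 6 of the 12 arrays of the series. Tubercidin was given at 550 nM and actinomycin D at 1 nM, each for 3 h and each at 5 times its IC50, so the doses differ in nM and are matched only as multiples of the IC50. The other arrays are 3 untreated cultures, for which no vehicle is described, and 3 cultures treated with AB61 at 250 nM for 3 h, also 5 times its IC50. They entered the estimate of the spread but not the difference itself. Each of the 12 samples carries a replicate number from 1 to 3 within its group, and p-values measure the spread between these replicates. Genes were taken from the 14432 of 22011 probe sets that carry exactly 1 gene symbol, with the brightest probe set kept where a gene had several, which gave 14232 genes. All levels below are log2 values after robust multi-array averaging (RMA), and all differences are tubercidin minus actinomycin D on that log2 scale unless another pair is named.

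Tubercidin is an adenosine analogue in which a ring nitrogen of the base is replaced by carbon. It enters cells through nucleoside transporters, is phosphorylated by adenosine kinase, and its phosphates are built into nucleic acids and disturb RNA processing and protein synthesis. Actinomycin D intercalates into DNA, preferentially at guanine and cytosine, and stops RNA polymerases on the template, with ribosomal RNA synthesis by RNA polymerase I being the most sensitive at low doses. Both treatments therefore act on RNA production by different routes, and the direct comparison asks which mRNAs separate them.

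The arrays carried signal for the genes that define the labelled T lineage. CD3D, a chain of the T cell receptor complex, had a mean level of 12.41 with tubercidin and 12.37 with actinomycin D, and CD7, an early T cell surface protein, had 10.06 and 10.07. Of the 23 measured T lineage markers 0 had an unadjusted p below 0.05, against 1.29% of all genes. Their mean level per array was 8.99 to 9.16 with tubercidin and 8.95 to 9.09 with actinomycin D. Over 7 B lineage markers it was 5.55 to 5.86 against 5.74 to 5.94, and over 7 myeloid markers 5.18 to 5.37 against 5.35 to 5.55. Over 6 epithelial markers it was 5.39 to 5.63 against 5.45 to 5.61, and over 8 stromal and endothelial markers 5.80 to 5.89 against 5.89 to 5.94. The keratin gene KRT8 had levels of 9.67 and 9.65, and the adhesion gene PECAM1 levels of 9.17 and 9.23. No detection calls were used, so the signal of an absent mRNA cannot be told apart from a low one in these values. The correlation over all genes was 0.9893 to 0.9957 between arrays of different treatments, 0.9882 to 0.9942 between actinomycin D arrays and 0.9904 to 0.9935 between tubercidin arrays.

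No gene separated tubercidin from actinomycin D at an adjusted p below 0.05 by limma (0 of 14232 genes, 0%), and the smallest adjusted p was 0.853. At an unadjusted p below 0.05 there were 184 genes (1.29%), fewer than the 5% that evenly spread p-values give. Of these, 81 (0.569%) were higher with tubercidin and 103 (0.724%) were lower. The fit has no term for the replicate number, so its error may include spread shared by arrays of 1 number. The shortfall of small p-values therefore does not show that the treatments act alike. How the counts change with such a term is given in the last section. The median difference over all genes was -0.01, with quartiles of -0.074 and 0.061. Only 2 genes reached an absolute difference of 1, which is a doubling, and 61 reached 0.5. Those 2 genes were CHAC1, described below, and FAM223A, whose 3 tubercidin arrays of 1.68, 4.48 and 3.96 overlapped its actinomycin D arrays of 4.76, 3.54 and 6.0. The FAM223A difference was -1.39 with a standard error of 0.74.

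The arrays allow only limited differences for most genes. The 95% interval of the difference lay within 1 either way, that is within a doubling or halving, for 14106 genes (99.1%), and within 0.5 either way for 11629 genes (81.7%). The interval reached 1 for the remaining 126 genes, of which 27 had a mean level at or above the median gene. The median standard error was 0.131 and the interval typically extended 0.283 on each side. That precision depends on the number of arrays and on the spread between replicates, which may include spread shared by arrays of 1 replicate number. By comparison, 13 genes (0.0913%) passed an adjusted p below 0.05 for tubercidin against untreated cells and 17 genes (0.119%) for actinomycin D against untreated cells. RMA forces similar distributions onto the arrays and would hide a global fall in mRNA in either treatment.

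All 3 tubercidin arrays lay above or all 3 below the actinomycin D arrays for 933 genes (6.56%), where exchangeable arrays give 10%. The split was 312 genes higher with tubercidin (2.19%) and 621 lower (4.36%). This split follows the level of the genes: over 5 equal bins of genes by mean level, the median difference was -0.043 in the dimmest bin and 0.032 in the brightest. With that trend over intensity removed the counts were 494 higher and 486 lower, and with quantile normalization repeated they were 481 and 532. Both criteria together, an unadjusted p below 0.05 and arrays that do not overlap, held for 133 genes, 53 higher and 80 lower. Among genes with a mean level at or above the median gene they held for 23, of which 19 were higher with tubercidin and 4 lower.

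**Figure D1:**
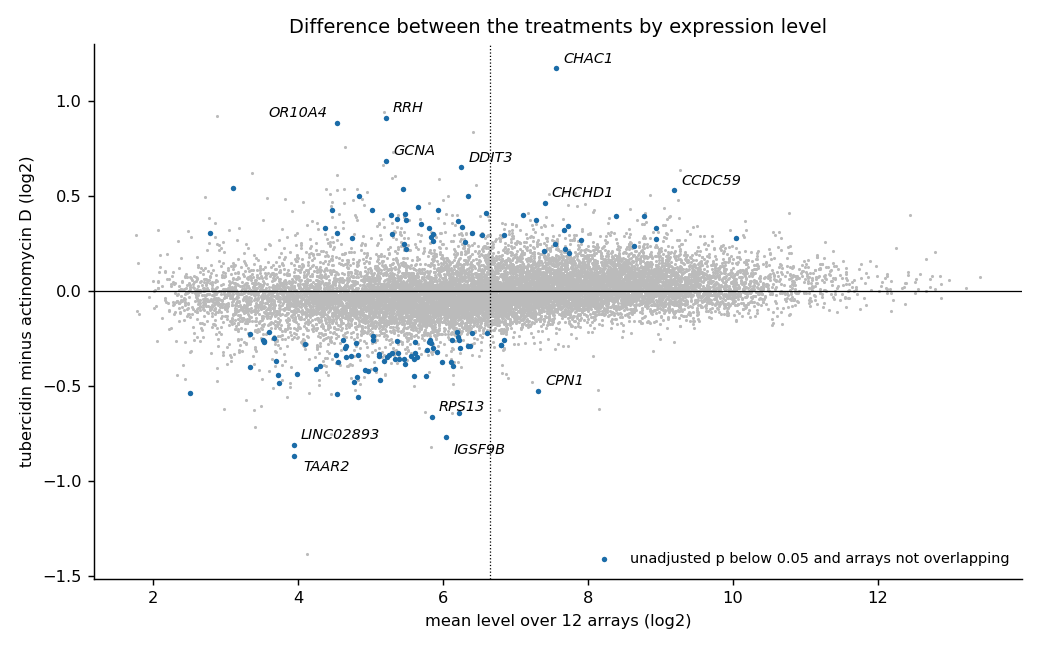
Each point is 1 of 14232 genes, with the mean log2 level over 12 arrays on the horizontal axis and the tubercidin minus actinomycin D difference on the vertical axis. Blue points are the 133 genes with an unadjusted p below 0.05 and arrays that do not overlap, the dotted line is the median gene at 6.64, and CHAC1 stands at 1.17.

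CHAC1, which encodes a glutathione-degrading enzyme induced in amino acid and endoplasmic reticulum stress, had the smallest p of all genes. Its tubercidin arrays stood at 7.99, 7.83 and 8.22 and its actinomycin D arrays at 6.77, 6.62 and 7.14. The groups did not overlap, and the tubercidin arrays lay in the lower part of the untreated range, whose arrays were 7.83, 8.14 and 8.66. The AB61 arrays, at 6.89, 7.27 and 7.31, overlapped those of actinomycin D and lay below all tubercidin arrays. The level was 8.01 ± 0.20 (SD, n = 3) with tubercidin and 6.84 ± 0.27 (SD, n = 3) with actinomycin D, a difference of 1.17 with a standard error of 0.20. That is 2.25-fold, with a 95% interval of 0.74 to 1.61 on the log2 scale. The unadjusted p by limma was 6.36e-05 and the adjusted p 0.853, so the gene did not pass over all genes. With array weights, in a fit whose weights stopped before convergence, the adjusted p was 0.0116. Against untreated cells CHAC1 fell by 1.37 with actinomycin D (adjusted p by limma 0.0345), while the difference was -0.20 with tubercidin (adjusted p 0.933). Leaving out each array of either treatment in turn gave direct differences of 1.06 to 1.32.

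DDIT3 encodes the transcription factor CHOP, which acts with ATF4 in the same stress response and is known to act on CHAC1. Its tubercidin arrays stood at 6.16, 6.93 and 6.50 and its actinomycin D arrays at 6.11, 5.63 and 5.91. The groups were separated by the small gap between 6.16 and 6.11. The difference was 0.65 with a standard error of 0.20, or 1.57-fold, with an unadjusted p by limma of 0.00682. Untreated cells had 6.24, 6.56 and 6.62, so the tubercidin arrays spanned the untreated range and the actinomycin D arrays lay below it.

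The 250 bases before the start of CHAC1, DDIT3 and ASNS are shown because CHAC1 and DDIT3 differ most among the stress genes and ASNS, asparagine synthetase, holds a well-known element for ATF4. Sequences are from RefSeq on GRCh38.p14, 5′ to 3′ on the strand of the gene. CHAC1 is on the plus strand at chr15:40953221-40953470, DDIT3 on the minus strand at chr12:57520515-57520764 and ASNS on the minus strand at chr7:97872409-97872658. Capitals mark matches to the CEBP-ATF type motif TGATGNAA on either strand.
CHAC1: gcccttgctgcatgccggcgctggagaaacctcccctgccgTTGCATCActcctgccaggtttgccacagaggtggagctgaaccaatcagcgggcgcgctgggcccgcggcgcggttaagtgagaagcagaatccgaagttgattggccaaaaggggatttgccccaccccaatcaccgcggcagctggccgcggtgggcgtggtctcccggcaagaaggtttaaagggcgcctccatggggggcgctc
DDIT3: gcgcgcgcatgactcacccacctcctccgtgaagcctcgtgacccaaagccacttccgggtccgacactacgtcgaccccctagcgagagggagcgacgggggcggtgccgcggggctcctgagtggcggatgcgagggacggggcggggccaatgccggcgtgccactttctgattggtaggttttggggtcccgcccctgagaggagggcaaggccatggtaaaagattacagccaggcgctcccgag
ASNS: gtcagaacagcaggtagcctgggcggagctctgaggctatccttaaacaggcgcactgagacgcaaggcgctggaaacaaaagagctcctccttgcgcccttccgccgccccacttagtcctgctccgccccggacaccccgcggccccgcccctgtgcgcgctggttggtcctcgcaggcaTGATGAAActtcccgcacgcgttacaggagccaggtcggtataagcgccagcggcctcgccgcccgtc
The match in CHAC1 begins 209 bases before the start and lies on the opposite strand, and that in ASNS begins 68 bases before the start on the strand of the gene. The DDIT3 window holds no match to these letters. Of the 11385 genes (80%) with a window in the table, 231 (2.03%) held the motif, and of 22 listed stress genes with a window, 2 did. A match of letters is a description and not a measured binding site.

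ATF4 is translated preferentially when the initiation factor eIF2 is phosphorylated and turns on genes of amino acid supply, of transfer RNA charging and of the later stress response. Of 27 listed members, 25 were measured. Their median difference was 0.111, against -0.01 over all genes, and 19 of the 25 lay above 0. At an unadjusted p below 0.05, 3 were higher with tubercidin and 0 lower, and 5 had tubercidin arrays wholly above actinomycin D and 0 wholly below. Over all genes 0.569% were higher at that p, against 3 of 25 here, and 2.19% were wholly above, against 5 of 25. With the intensity trend removed the median was 0.070, and with each array of either treatment left out in turn it was 0.064 to 0.156. The list was chosen with earlier results of these data known, and 0 of its members passed the adjusted test.

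Besides CHAC1 and DDIT3, the third member with an unadjusted p below 0.05 was CEBPG, a partner of ATF4 on DNA, which was picked out after its values were seen. Its tubercidin arrays were 7.84, 7.79 and 7.76 and its actinomycin D arrays 7.54, 7.57 and 7.68. The tubercidin arrays were all above the others, by a difference of 0.20 with a standard error of 0.09. CEBPB, a further CEBP factor, had 7.46, 7.57 and 7.53 against 7.42, 7.39 and 7.27, which do not overlap either, with a difference of 0.16 and a 95% interval of -0.05 to 0.37. MTHFD2, a mitochondrial enzyme of folate metabolism that was also picked out after its values were seen, had a difference of 0.13 without overlap.

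The other members overlapped between the treatments. VLDLR, a lipoprotein receptor, had 7.51, 7.10 and 8.04 against 6.65, 7.01 and 7.45, a difference of 0.51 with a 95% interval of -0.13 to 1.15. Without tubercidin replicate 3 that difference was 0.269. ATF3, a stress-induced repressor, had 6.95, 7.33 and 7.28 against 6.69, 6.90 and 7.11. Its difference was 0.28, with a 95% interval of -0.04 to 0.61, and 0.178 without actinomycin D replicate 1. ATF4 itself had a difference of 0.08 with a standard error of 0.14, and ASNS one of 0.15 with a standard error of 0.11. Against untreated cells the medians of the list were -0.045 for tubercidin and -0.131 for actinomycin D, 2 comparisons that share their control arrays. Aminoacyl-tRNA synthetases, which charge transfer RNAs and include targets of ATF4, had a median of 0.051 over 18 genes, 15 of them above 0, and one of 0.015 with the intensity trend removed. TARS1, LARS1 and CARS1 had the largest differences of these, from 0.20 to 0.22, each reduced to between 0.079 and 0.124 by leaving out 1 array. Those arrays were actinomycin D replicate 1 for TARS1, tubercidin replicate 1 for LARS1 and tubercidin replicate 2 for CARS1. Of the synthetases 0 had an unadjusted p below 0.05, against 1.29% of all genes.

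**Figure D2:**
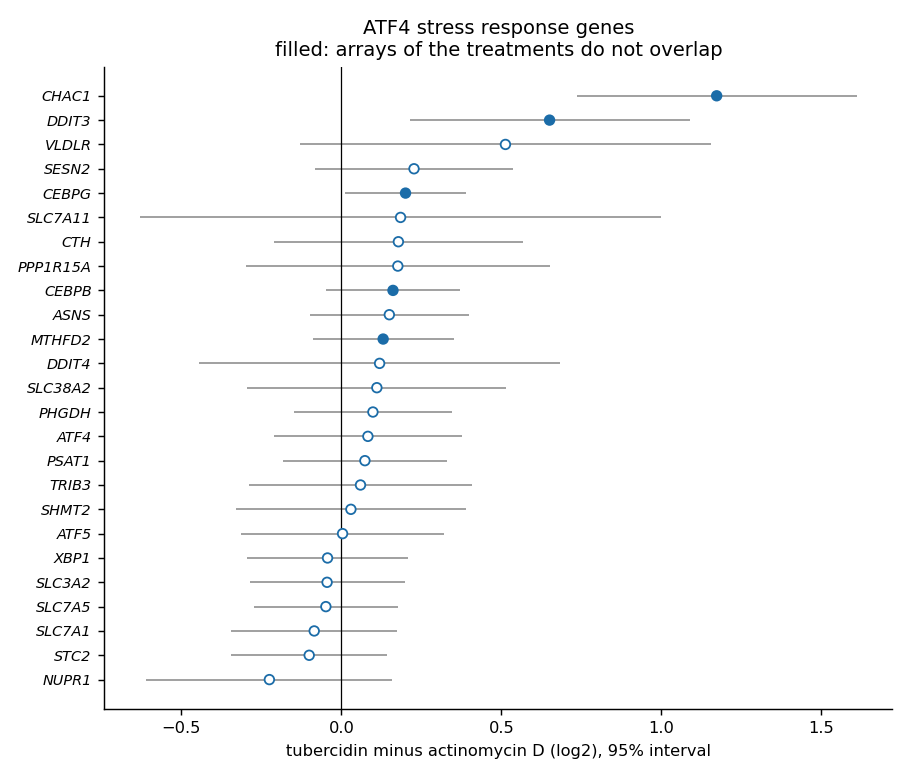
Points are the 25 measured ATF4 stress genes by their tubercidin minus actinomycin D difference on the log2 scale, and lines are 95% intervals. Filled points mark the 5 genes whose arrays do not overlap between the treatments, CHAC1 is at 1.17 and DDIT3 at 0.65, and the intervals of most members include 0.

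Among the 19 brighter genes that were higher with tubercidin, 13 had a tubercidin mean nearer to untreated cells than the actinomycin D mean was. Over all levels this held for 29 of the 53 higher and 46 of the 80 lower genes, and for 2 of the 4 brighter lower ones. These genes were chosen on the same tubercidin and actinomycin D values. The share over all genes was not computed, so the counts are a description only. CCDC59, a nuclear protein that binds a thyroid and lung transcription factor, had 9.21, 9.58 and 9.42 with tubercidin and 8.74, 8.93 and 8.95 with actinomycin D. The untreated arrays, at 9.61, 9.77 and 9.28, lay with the tubercidin arrays, and the difference between treatments was 0.53 with a standard error of 0.14. RSRC2, a protein rich in arginine and serine, had 8.97, 8.84 and 9.10 against 8.45, 8.48 and 8.81, with untreated cells at 8.98, 9.0 and 9.14. Here too the actinomycin D arrays were below the untreated and tubercidin arrays, with a direct difference of 0.39 and a standard error of 0.12. The AB61 arrays overlapped those of actinomycin D in both genes, with 8.71, 9.01 and 9.03 for CCDC59 and 8.35, 8.54 and 8.59 for RSRC2. GPALPP1 had a direct difference of 0.34, a difference from untreated cells of -0.02 with tubercidin and one of -0.36 with actinomycin D.

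CDKN2AIP, which binds the ARF tumour suppressor, had 8.65, 8.53 and 8.56 against 7.88, 8.29 and 8.39, with a difference of 0.39 that became 0.237 without actinomycin D replicate 1. Its actinomycin D arrays were more spread than its tubercidin arrays, and the groups did not overlap. NFKBIA, the inhibitor that holds NF-kB in the cytoplasm, had 8.91, 9.30 and 9.03 against 8.59, 8.78 and 8.88, with a difference of 0.33 and an unadjusted p by limma of 0.0291. It was the 1 gene of 15 NF-kB subunits and inhibitors with an unadjusted p below 0.05 (6.67%, against 1.29% of all genes). The list had a median of 0.004. BTG3, of an antiproliferative gene family, had a difference of 0.32 with a 95% interval of 0.0006 to 0.64. GPALPP1, NFKBIA and BTG3 turned to -0.0227, -0.034 and -0.0433 when arrays were centred on the median level of the ribosomal protein genes. That centring shifts all genes of an array by the same amount, and it moved the median difference of all genes to -0.374. The change of sign follows from that common shift and is no trait of these genes.

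Other genes were higher with tubercidin than in both actinomycin D and untreated cells. KCNRG, a regulator of potassium channels, had 7.55, 7.88 and 7.66 with tubercidin and 7.22, 7.31 and 7.44 with actinomycin D. The untreated arrays at 6.79, 6.72 and 6.75 were below both, and the direct difference was 0.37 with a standard error of 0.10. Against untreated cells KCNRG rose by 0.94 with tubercidin (adjusted p by limma 0.00404), and its difference was 0.57 with actinomycin D (adjusted p 0.0766). NDUFAF5, an assembly factor of respiratory complex I, had 7.59, 7.27 and 7.49 against 6.97, 7.04 and 7.15, with untreated cells at 7.00, 6.93 and 6.82. The actinomycin D arrays were near the untreated ones, and the direct difference was 0.40 with a standard error of 0.11. CHCHD1, a protein of the mitochondrial ribosome, had 7.79, 8.05 and 7.46 against 7.20, 7.40 and 7.31, a difference of 0.46 with a standard error of 0.17. Untreated cells had 7.25, 7.45 and 7.50, which overlap the lowest tubercidin array.

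The remaining large positive differences were in dim genes. RRH, a retinal opsin, had 6.55, 5.49 and 5.90 against 5.19, 5.09 and 4.92, with untreated cells at 5.09, 4.92 and 4.74. The tubercidin arrays were above the actinomycin D and untreated arrays, with replicate 1 the highest, and the direct difference was 0.91 with a standard error of 0.21. GCNA, a nuclear protein of germ cells, had 5.57, 5.56 and 5.88 against 4.81, 4.96 and 5.19, with a difference of 0.69 and a standard error of 0.14. Its adjusted p by limma was 0.9999, and 0.0326 with array weights, in the fit whose weights stopped before convergence. The olfactory receptor OR10A4 had 0.89 with a standard error of 0.26. PRR23C, the synaptic vesicle gene SYP, the Fc receptor chain FCER1G and the kinase anchor AKAP5 had differences of 0.50 to 0.54.

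**Figure D3:**
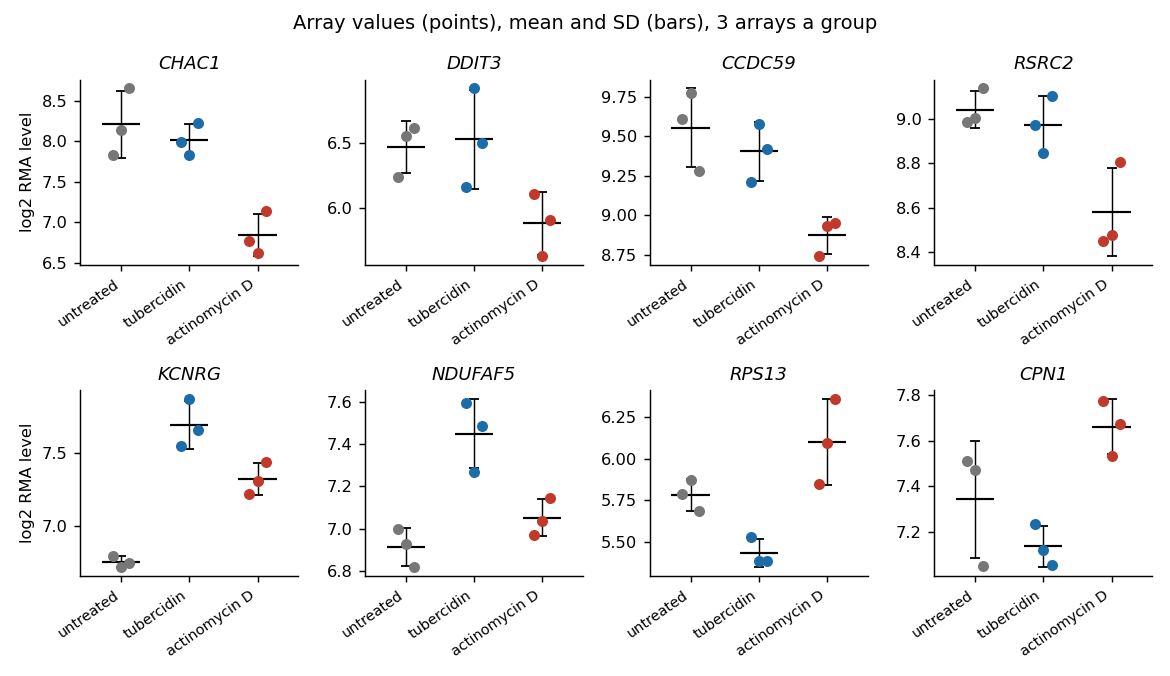
Points are the log2 RMA levels of single arrays for 8 genes in untreated, tubercidin and actinomycin D cells, with lines at the mean and bars of 1 SD over 3 arrays. In CHAC1, CCDC59 and RSRC2 the actinomycin D arrays stand below the untreated and tubercidin arrays, and in KCNRG and NDUFAF5 the tubercidin arrays stand above the other plotted arrays. In RPS13 the tubercidin arrays stand below the untreated ones, while the lowest actinomycin D array, at 5.85, is within them.

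Of the genes lower with tubercidin, RPS13, a protein of the small ribosomal subunit, had the smallest p. Its tubercidin arrays were 5.53, 5.39 and 5.39, its actinomycin D arrays 5.85, 6.09 and 6.36, and its untreated arrays 5.79, 5.87 and 5.69. Tubercidin lay below all untreated arrays, while the lowest actinomycin D array lay within them. RPS13 was dim on these arrays, with a mean level of 5.84 against 6.64 for the median gene. The median level of the cytosolic ribosomal protein genes was 7.8. Whether this probe set reads the RPS13 mRNA alone was not tested. The difference was -0.66 with a standard error of 0.12 and an unadjusted p by limma of 0.00012. The adjusted p was 0.853, and 0.0149 with array weights, in the fit whose weights stopped before convergence. Most other ribosomal protein genes lay on the other side of 0. Of the 31 cytosolic ribosomal protein genes, 25 lay above 0 (80.6%, against 45.9% of all genes), and the median was 0.069. That median rested on 1 array and fell below 0 without tubercidin replicate 2, as given below. RPL37A had a difference of 0.27 with a standard error of 0.20, and of 0.038 without tubercidin replicate 1. RPS13 was the 1 member with an unadjusted p below 0.05 (3.23%, against 1.29% of all genes).

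CPN1, the catalytic subunit of carboxypeptidase N, was the largest of the 4 brighter genes that were lower with tubercidin. It had 7.23, 7.12 and 7.05 against 7.78, 7.53 and 7.68, with a difference of -0.53 and a standard error of 0.14. Untreated cells had 7.51, 7.47 and 7.05, below all actinomycin D arrays and overlapping the tubercidin arrays. The other 3 of these genes differed less. TMEM190 had -0.29, ZBTB7B, a factor of CD4 T cell commitment, -0.28, and MAFA, a factor of insulin-producing cells, -0.26, each without overlap of the arrays and with unadjusted p by limma from 0.0337 to 0.0498.

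The larger negative differences were in dim genes, several of them receptors of other tissues. TAAR2, a receptor for trace amines, had 3.76, 3.56 and 3.34 against 3.96, 4.21 and 5.10, a difference of -0.87 (standard error 0.27) that became -0.534 without actinomycin D replicate 3. The long non-coding RNA LINC02893 had 3.66, 3.91 and 3.46 against 4.31, 4.74 and 4.41. Its groups were well apart, with a difference of -0.81 and a standard error of 0.17. Its adjusted p by limma was 0.9999, and 0.0149 with array weights, in the fit whose weights stopped before convergence. IGSF9B, a synaptic adhesion protein, had 5.73, 5.16 and 5.64 against 6.17, 6.73 and 5.94, a difference of -0.77. The olfactory receptors OR2L3 and OR2M4 had -0.64 and -0.56, ZNF679 had -0.55 and the bacterial lipopeptide receptor TLR6 had -0.48. In the myeloid marker list CD14, picked out after its values were seen, had 5.80, 5.99 and 5.67 against 5.99, 6.33 and 6.26 and an unadjusted p by limma of 0.014. It was the 1 of 7 with an unadjusted p below 0.05 (14.3%, against 1.29% of all genes), and the list had a median of -0.144. Its part in these results was not tested.

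Mitochondrial and translation genes leaned towards higher levels with tubercidin, but this rested on 1 array. Mitochondrial ribosomal proteins, which make the subunits of respiratory complexes inside the organelle, had a median of 0.105 over 65 genes, with 51 above 0. At an unadjusted p below 0.05, 2 were higher and 0 lower, and 6 were wholly above and 0 wholly below. In either direction these are 3.08% and 9.23% of the list, against 1.29% and 6.56% of all genes. Respiratory chain genes had a median of 0.097 over 65 genes, with 52 above 0, 0 at an unadjusted p below 0.05 and 5 wholly above, which is 7.69% against the same 6.56%. Per array, the median deviation of the mitochondrial ribosomal genes from their mean over all arrays was 0.003, 0.320 and -0.144 with tubercidin. With actinomycin D it was -0.014, -0.014 and -0.150. Tubercidin replicate 2 stood above every other array of the treatments, and tubercidin replicate 3 was close to actinomycin D replicate 3. Without tubercidin replicate 2 the medians were -0.03 for mitochondrial ribosomal proteins and 0.002 for the respiratory chain.

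The same array carried the medians of other abundant groups. Without tubercidin replicate 2 the median was -0.028 for cytosolic ribosomal proteins, -0.002 for translation initiation and elongation factors, against 0.047 over 47 genes with it, and -0.042 for replication-dependent histones, against 0.082 over 49 genes with it. MRPL42, picked out after its values were seen, did not follow that array. It had 10.35, 10.14 and 10.15 with tubercidin and 9.94, 9.90 and 9.98 with actinomycin D, a difference of 0.28 with a standard error of 0.10. MRPL33 did, with a difference of 0.40 (standard error 0.21) that became 0.147 without tubercidin replicate 2. SDHD, a membrane anchor of complex II, had 4.68, 5.02 and 4.64 against 3.85, 4.34 and 4.55, without overlap and with a difference of 0.54 and a 95% interval of -0.09 to 1.17. Without actinomycin D replicate 1 that difference was 0.339.

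Core histone genes of replicating chromatin had differences of both signs. H2AC15 had 10.99, 11.44 and 10.85 against 10.90, 10.76 and 10.39, with a difference of 0.41 and overlapping arrays, and 0.234 without tubercidin replicate 2. H2AC16 had 0.40 and H2AC11 had -0.35, a pair named after their values were seen. With H2AC15 they were the 3 histone genes with an unadjusted p below 0.05 (6.12%, against 1.29% of all genes). H2BC10 had -0.72 with a standard error of 0.42 and H2BC21 -0.62 with a standard error of 0.34, neither below that threshold. Without tubercidin replicate 1 these became -0.466 and -0.286, and without actinomycin D replicate 2 H2BC10 became -1.165. H2BC10 was dim, with a mean level of 3.41 against a median level of 9.11 for the list. Histone genes are near-identical copies of each other, so a signal may be shared between them. The proteasome subunits had a median of 0.053 over 34 genes, with PSME2 at 0.50 and a standard error of 0.30, or 0.177 without tubercidin replicate 2 and 0.866 without replicate 3. Splicing factors of the SR family with their CLK kinases had a median of 0.073 over 14 genes, or 0.034 with the intensity trend removed. Of these, 2 were wholly above and 0 wholly below, 14.3% against 6.56% of all genes. SRSF10, a splicing repressor and the member with the largest absolute difference, had 6.52, 6.23 and 7.20 against 6.89, 6.94 and 7.43, a difference of -0.44 with a standard error of 0.30. TRA2A, a splicing activator, had 9.12, 9.35 and 9.09 against 8.70, 8.83 and 8.98, with a difference of 0.35 and a 95% interval of -0.02 to 0.72.

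The genes closest to each drug's own route gave small differences. Of 28 measured genes of adenosine analogue uptake and metabolism, 0 had an unadjusted p below 0.05 and 0 had arrays that do not overlap. Over all genes these shares were 1.29% and 6.56%, which give few genes or none in a list of this size. The differences of the list ran from -0.14 to 0.23. ADK, the adenosine kinase that activates tubercidin, picked out for that role, had 9.82, 9.49 and 9.34 against 9.52, 9.42 and 9.41, with a difference of 0.10 and a 95% interval of -0.19 to 0.39. HPRT1, a purine salvage enzyme, had the largest difference of the list at 0.23, with a 95% interval of -0.07 to 0.54, and 0.108 without actinomycin D replicate 1. NT5C and DCK, a nucleotidase and the deoxycytidine kinase, had -0.14 and 0.14. The 9 drug efflux transporters ran from -0.12 for ABCC10 to 0.10 for ABCC2.

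RNA polymerase I genes, the machinery of ribosomal RNA synthesis, had a median of 0.014 over 11 genes, and nucleolar ribosome biogenesis genes one of -0.014 over 38. In both lists 0 genes had an unadjusted p below 0.05 and 0 had arrays that do not overlap, against 1.29% and 6.56% of all genes. TAF1A and TAF1B, subunits of the polymerase I initiation factor, had 0.16 each, with standard errors of 0.46 and 0.21. Among nucleolar genes LYAR had 0.19, UTP4 -0.17 and FBL, the fibrillarin methyltransferase, 0.17, with standard errors of 0.19 to 0.22. These values concern the mRNAs of the factors, and pre-ribosomal RNA was not analysed here.

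The 24 measured immediate early genes, which are induced within minutes of a signal and have unstable mRNAs, had medians against untreated cells of -0.267 with tubercidin and -0.366 with actinomycin D, comparisons that share their control arrays. Directly, their median difference was -0.016 and 0 had an unadjusted p below 0.05, against 1.29% of all genes. In this list 1 gene was wholly above and 1 wholly below, 8.33% against 6.56% of all genes. EGR3 had 5.49, 5.78 and 5.63 against 5.41, 5.45 and 5.38, which do not overlap, with a difference of 0.22 and a standard error of 0.25, and of 0.144 without tubercidin replicate 2. EGR1 had a difference of 0.03, but its 95% interval ran from -1.13 to 1.19, so the arrays do not bound it within a doubling. MYC had -0.09 with a 95% interval of -0.88 to 0.69. EGR1 and MYC were picked out for their role. The DUSP and SPRY feedback inhibitors of mitogen signalling had a direct median of 0.032 over 17 genes.

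Stress and cell cycle lists had medians from -0.040 to 0.033. The p53 target list had a median of -0.040 over 24 genes, with CDKN1A, the cyclin kinase inhibitor p21, at -0.16 and SESN2, a stress-induced sestrin, at 0.23, or 0.12 without tubercidin replicate 3. Endoplasmic reticulum chaperones had 0.004 over 18 genes, with HERPUD1 at 0.25 and a standard error of 0.22, or 0.057 without actinomycin D replicate 1 and 0.445 without replicate 3. Heat shock proteins had 0.033 over 15 genes, and CHORDC1, their largest at 0.73, had a standard error of 0.56 and ran from 0.461 without tubercidin replicate 1 to 1.209 without replicate 2. Sterol synthesis genes had -0.033 over 14 genes. DNA replication genes had 0.026 over 36 genes and mitosis genes 0.019 over 28. The 22 measured genes of the BCL2 family and apoptosis inhibitors had -0.004. In these 7 lists 0 genes had an unadjusted p below 0.05, against 1.29% of all genes. That share gives few genes or none in lists of this size.

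A further 11 lists, of transcription, repair, signalling and metabolism, had medians from -0.027 to 0.042. The highest were homologous recombination and Fanconi anaemia genes, with 0.042 over 21 genes, and RNA polymerase II with Mediator, with 0.041 over 46. The lowest was NOTCH1 signalling, a growth pathway of T-cell leukaemia, with -0.027 over 16 genes. In these lists 1 gene had an unadjusted p below 0.05, where the share over all genes was 1.29%. It was EXOSC3, a subunit of the RNA exosome, with a difference of 0.26 and a standard error of 0.12. It was 0.17 without tubercidin replicate 2. With ribosomal protein centring, which moved the median difference of all genes to -0.374, it turned to -0.1065. Of transcripts encoded in the mitochondrion only ND5 and ND6, subunits of complex I, were measured, with differences of 0.02 and -0.52 and no unadjusted p below 0.05. Their median was -0.251, and ND6 became -0.065 without tubercidin replicate 1 and -0.861 without replicate 3.

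**Figure D4:**
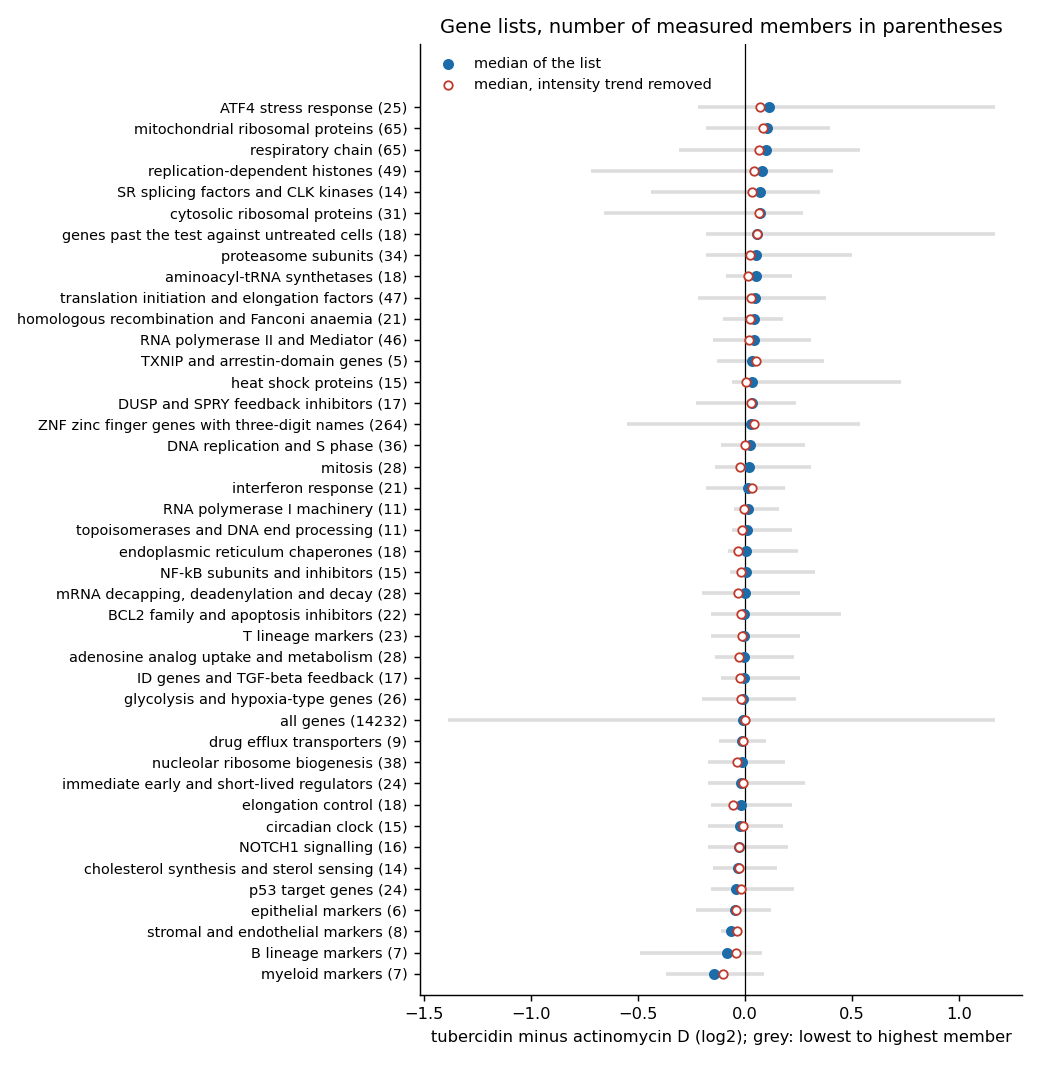
Filled points are the median tubercidin minus actinomycin D difference of each gene list on the log2 scale, open points the same with the intensity trend removed, and grey bars run from the lowest to the highest member. Lists with at least 5 measured genes are drawn, and their medians lie between -0.144 and 0.111, inside the spread of the members.

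The 18 genes that earlier results of these data placed past the adjusted test against untreated cells, for either treatment, were set side by side. Directly between the treatments their median difference was 0.056, the 95% interval lay within 1 either way for 17 of them, and CHAC1 was the exception. FOSL2, an AP-1 transcription factor, had 7.62, 7.98 and 8.03 with tubercidin and 7.78, 7.93 and 8.03 with actinomycin D, against 8.83, 9.44 and 9.58 in untreated cells. The treatments overlapped fully, with a direct difference of -0.04 and a 95% interval of -0.42 to 0.34. CORO2A, an actin-binding coronin, had 7.11, 7.36 and 7.25 against 7.17, 7.05 and 7.31, with untreated cells at 7.83, 8.07 and 8.48. Its direct difference was 0.07, with a 95% interval of -0.25 to 0.38.

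CHRNA6, a nicotinic receptor subunit, had 7.23, 7.59 and 7.26 with tubercidin and 7.44, 7.59 and 7.34 with actinomycin D, against 6.29, 6.30 and 6.15 in untreated cells. Both treatments stood above untreated cells and overlapped each other. Its direct difference was -0.09, with a 95% interval of -0.35 to 0.16. SERPINB8, a protease inhibitor, had 8.60, 8.67 and 8.92 against 8.42, 8.71 and 8.84, with a direct difference of 0.07 and a 95% interval of -0.23 to 0.37. EFNB2, an ephrin ligand, had -0.01 with a 95% interval of -0.25 to 0.23, and VEGFA, the vascular growth factor, 0.14 with -0.08 to 0.35. Of the 18 genes, 2 had an unadjusted p below 0.05 (11.1%, against 1.29% of all genes), CHAC1 and KCNRG, both higher with tubercidin. Against untreated cells CHAC1 passed the adjusted test with actinomycin D but not tubercidin, and KCNRG with tubercidin but not actinomycin D. Choosing genes in that way favours a direct difference in them. The other genes, MBD5, FANCF, ZNF583, ATP10D, KIAA0753, DCP1B, PTGDR and TTC8, with ATF3 and CEBPB described above, had direct differences from -0.18 to 0.28.

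**Figure D5:**
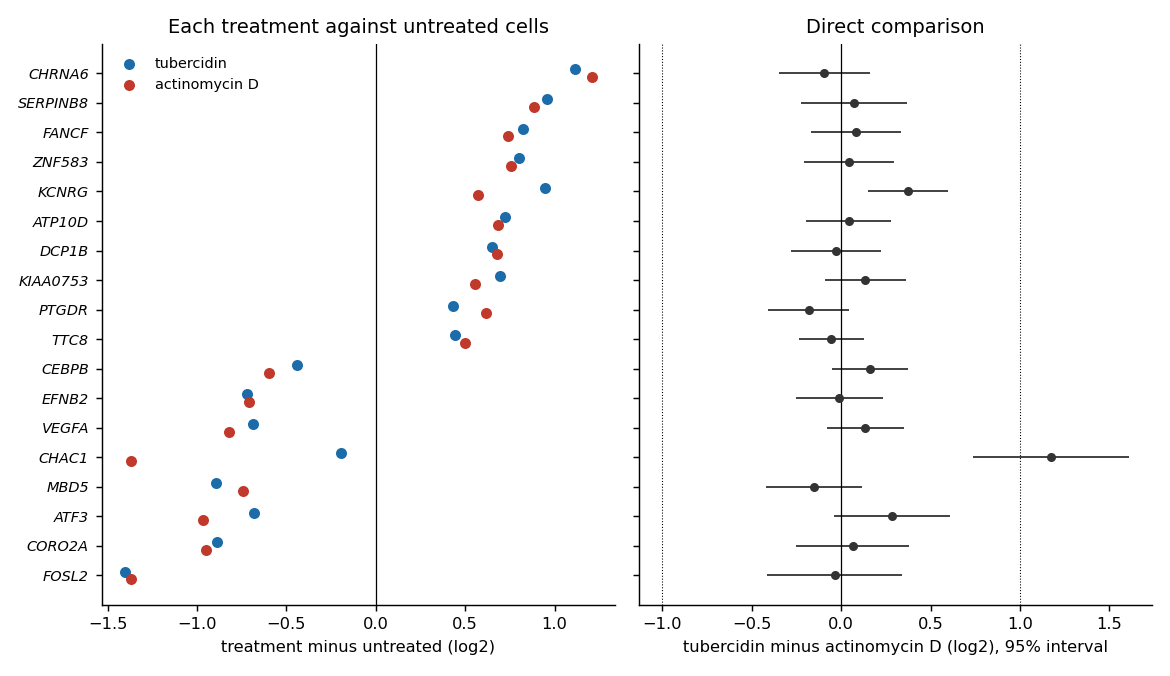
The left panel gives the log2 difference of each treatment from untreated cells for 18 genes, and the right panel the direct tubercidin minus actinomycin D difference with its 95% interval, with dotted lines at 1 either way. For most genes the treatment points nearly coincide, and CHAC1 is the 1 gene whose interval passes a dotted line.

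The differences between the treatments were small at every base composition of the promoter. Over 5 bins of genes by the share of guanine and cytosine in the promoter window, from 24.3 to 52.3% in the lowest bin and from 72.7 to 94.0% in the highest, the median difference was -0.017 in the lowest and -0.019 in the highest, and 0.005 in the middle bin. With the intensity trend removed the medians of the 5 bins, from the lowest share to the highest, were 0.006, 0.009, 0.007, -0.002 and -0.013. The 264 measured zinc finger genes of the ZNF series had a median of 0.031, with 3 higher and 1 lower at an unadjusted p below 0.05 and 9 wholly above and 8 wholly below. These are 1.52% and 6.44% of the list, near the 1.29% and 6.56% over all genes.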

How the data were processed

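RNA from 12 CCRF-CEM cultures, 3 in each of 4 groups, was hybridised to whole-transcript arrays. The deposited levels are log2 values per transcript cluster; RMA, oligo and limma are named per the submitters' processing notes, without versions. The authors' deposited comparison tables hold log2 fold changes and a p-value per probe set, and the difference of their fold changes equals the difference of group means used here to within 7e-14.

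Genes were named from the supplied platform annotation: 14432 probe sets had 1 symbol, 2408 several and 5171 none listed, and 197 genes had several probe sets. Linear models were fitted with limma 3.58.1 in R 4.3.3 to the 12 arrays as 4 groups, and moderated by eBayes with no trend or robust option, giving 8 residual and 4.91 prior degrees of freedom, two-sided p-values and Benjamini-Hochberg adjustment over 14232 genes. No filter on dim genes was applied. Intervals are 95% intervals from the moderated standard error. The method was tested on simulated data. Figures were drawn with matplotlib 3.10.9 in Python 3.11.15.

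The members, gene lists and tests were chosen with earlier results of these data known. The rule named, per direction, the 10 genes with the largest difference among those with an unadjusted p below 0.05 and arrays that do not overlap, over all genes and again among genes at or above the median level. It added the 3 largest of each list described and the 18 genes of earlier results; 1 gene the rule named is not reported here. Alternatives covered the arrays in the fit, scaling, dim genes, the variance model, array weights, probe set choice and each array left out.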

Additional observations from a re-analysis of the deposited data

How the results depend on the processing

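The count of 0 genes at an adjusted p below 0.05 became 1 (CHAC1, adjusted p 0.0355) with a replicate block over 12 arrays, 5 with array weights (CHAC1, GCNA, LINC02893, RPS13 and SYP, in a fit whose weights stopped before convergence) and 6 with ribosomal protein centring. It was 0 under the other alternatives, including each array left out, where the smallest adjusted p was 0.184, without untreated replicate 3. At an unadjusted p below 0.05 the count of 184 became 360 on the 6 arrays of the treatments, 321 and 560 with the replicate block on 12 and 6 arrays, 1455 with ribosomal protein centring, 51 of 8539 genes with dim genes left out, 1616 with array weights and 431 of 22011 with all probe sets. It ran from 145 to 310 with 1 array left out, the highest being without AB61 replicate 3. The 933 genes without overlap became 5751 with ribosomal protein centring, 406 with dim genes left out and 1547 with all probe sets, and ran from 933 to 2754 with 1 array left out, since fewer arrays overlap less often. The 14106 genes with an interval within 1 became 8507 of the 8539 with dim genes left out. Centring on the median level of 31 ribosomal protein genes moved the median difference of all genes to -0.374, and GPALPP1, NFKBIA, BTG3 and EXOSC3 turned to -0.0227, -0.034, -0.0433 and -0.1065. Centring on their median deviation, chosen after seeing the data, moved it to -0.066, with 0 genes at an adjusted p below 0.05 and 164 at an unadjusted one. Of 4200 values of named genes under alternatives, 4035 moved by no more than the spread between replicates, 152 moved further and 9 passed the adjusted threshold. A change of direction was counted only for genes with an unadjusted p below 0.05 in the main fit, and there were 4. Other genes also changed sign, such as TAF1A, from 0.163 to -0.166 without actinomycin D replicate 3. NOTCH1 went from -0.170 to 0.057 without actinomycin D replicate 1. Of 1050 list medians 101 moved beyond that spread. Deviations of same-numbered tubercidin and actinomycin D arrays correlated at 0.226, 0.039 and 0.406. Those of differently numbered arrays ran from -0.371 to 0.114, the highest being tubercidin replicate 2 with actinomycin D replicate 1. What arrays of 1 number share is not given. The main fit therefore has no replicate block, and its error may include spread shared by number. The count of 0 genes at an adjusted p below 0.05 rests on that choice, since the block over 12 arrays gave 1. With 3 arrays a group and no replicate block, differences under 0.283, the typical reach of the 95% interval in the main fit, cannot be resolved for most genes.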
